A study of Homo sapiens with 6 samples.

Results

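The genes described here encode the machinery that copies the genome: the factors that license origins, the helicase and its activators, the polymerases, the clamp and its loader, the fork protection proteins, the enzymes that supply deoxynucleotides, and the regulators of the G1/S transition. The 52 symbols were listed by function, without use of measured values, and were matched by symbol to the rows of the authors' deposited table. Of these, 51 were among the 16953 genes of the table and E2F2 was not analysed here. All 51 carried an adjusted p. The lists and members were drawn up with earlier results of these data known.

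The cells were H1048, an established human line from small cell lung cancer, labelled wild type and kept in medium with serum. The groups were cells given ISP-I (isovalerylspiramycin I, a macrolide) at 10 µM for 48 h, in 3 samples, and cells given the solvent DMSO for 48 h, in 3 samples. The authors compared libraries D, E and F with libraries A, B and C. The letters are not linked to samples or treatments by any label, so every difference below sets D to F against A to C, and which set received ISP-I is not stated here. Columns of single libraries that no label ties to a sample were left out by choice, although their letters show the 2 sets. Depth, means and replicate spreads are therefore not reported, and each result is a log2 fold change with the adjusted p that the authors' deposited table lists. Positive values are taken to mean higher in D to F, because the table's name puts that set first.

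Replication is prepared in G1, when the origin recognition complex (ORC), CDC6 and CDT1 load the ring of MCM2 to MCM7 onto DNA. Geminin blocks CDT1 after S phase begins, so that each origin fires only once per cycle. The CDC7 kinase and CDK2 then act so that CDC45 and GINS join the ring and the helicase is switched on. The polymerases follow with the clamp PCNA, which the RFC complex loads. E2F factors drive many of these genes in late G1, and the retinoblastoma proteins hold E2F back.

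Promoters of the members at both ends of the range are shown first. E2F motifs were not used to choose the members. Because E2F factors drive many genes of these functions, the motifs are not independent of the choice. The sequences are RefSeq windows on GRCh38.p14, from 250 bases before to 50 bases after the transcript start, read 5′ to 3′ on the gene's strand. They belong to the 3 members with the highest and the 3 with the lowest log2 fold change among called members with 1 window in the RefSeq table. Capitals mark matches to the E2F motif, spelled TTTCCCGC, TTTCGCGC, TTTGCCGC or TTTGGCGC, on either strand.

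CDT1 (log2 fold change 1.83; chr16:88803539-88803838, plus strand): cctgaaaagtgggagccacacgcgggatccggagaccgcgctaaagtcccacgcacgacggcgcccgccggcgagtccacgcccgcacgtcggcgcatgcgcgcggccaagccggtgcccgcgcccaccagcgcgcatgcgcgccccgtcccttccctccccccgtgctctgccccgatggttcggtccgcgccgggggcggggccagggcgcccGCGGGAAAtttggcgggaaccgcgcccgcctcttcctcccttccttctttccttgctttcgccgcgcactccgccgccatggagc
CDC6 (1.15; chr17:40287629-40287928, plus strand): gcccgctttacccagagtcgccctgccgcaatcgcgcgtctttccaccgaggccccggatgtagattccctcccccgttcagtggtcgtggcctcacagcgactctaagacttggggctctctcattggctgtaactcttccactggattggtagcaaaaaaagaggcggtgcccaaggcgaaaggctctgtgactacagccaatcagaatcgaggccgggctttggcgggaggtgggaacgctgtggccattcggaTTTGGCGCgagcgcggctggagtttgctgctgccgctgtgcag
PRIM1 (0.98; chr12:56752274-56752573, minus strand): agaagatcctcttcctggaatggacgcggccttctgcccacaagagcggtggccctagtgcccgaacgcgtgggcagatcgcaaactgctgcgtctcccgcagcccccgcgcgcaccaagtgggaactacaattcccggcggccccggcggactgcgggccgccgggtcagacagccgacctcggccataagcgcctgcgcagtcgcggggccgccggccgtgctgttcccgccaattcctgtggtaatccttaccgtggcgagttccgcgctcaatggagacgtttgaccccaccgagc
MCM3 (-0.71; chr6:52284693-52284992, minus strand): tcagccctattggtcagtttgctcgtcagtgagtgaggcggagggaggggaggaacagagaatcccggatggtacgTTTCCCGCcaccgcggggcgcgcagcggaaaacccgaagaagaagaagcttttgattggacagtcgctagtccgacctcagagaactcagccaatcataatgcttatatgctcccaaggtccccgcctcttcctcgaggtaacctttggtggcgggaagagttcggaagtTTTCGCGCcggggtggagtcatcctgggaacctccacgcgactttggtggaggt
LIG1 (-0.80; chr19:48170295-48170594, minus strand): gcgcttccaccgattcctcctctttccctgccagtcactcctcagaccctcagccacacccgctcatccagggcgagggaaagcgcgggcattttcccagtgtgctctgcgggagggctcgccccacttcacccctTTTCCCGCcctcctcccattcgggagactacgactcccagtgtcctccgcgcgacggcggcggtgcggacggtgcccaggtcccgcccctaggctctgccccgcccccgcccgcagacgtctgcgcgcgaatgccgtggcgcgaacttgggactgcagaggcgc
TIMELESS (-1.89; chr12:56449377-56449676, minus strand): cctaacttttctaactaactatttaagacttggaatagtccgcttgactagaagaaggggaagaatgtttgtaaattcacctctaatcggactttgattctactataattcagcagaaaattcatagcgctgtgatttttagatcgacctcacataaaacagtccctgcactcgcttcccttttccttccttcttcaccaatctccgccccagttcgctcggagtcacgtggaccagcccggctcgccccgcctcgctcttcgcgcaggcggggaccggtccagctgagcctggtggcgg

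An E2F match was present in the CDT1, CDC6, LIG1 and MCM3 windows, MCM3 having 2, and these letters were not found in the PRIM1 and TIMELESS windows. Matches thus occurred beside increases and beside decreases.

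The replication genes were more often higher than lower in libraries D to F, and most called differences were under 2-fold. In the authors' deposited table, 25 of the 51 members (49.0%) were higher at an adjusted p under 0.05 and 9 (17.6%) were lower, while 17 were not called. Over all 15976 genes with an adjusted p, 29.7% were higher and 27.9% lower. The median log2 fold change was 0.22 over the members and 0.05 over all genes. Sizes were smaller than elsewhere in the table: the median absolute log2 fold change was 0.47 over the members and 0.67 over all genes, and 31 of the 34 called members changed by less than 2-fold. The exceptions were CDT1 and CDC6, which were higher, and TIMELESS, which was lower. Called at 2-fold or more were 5.88% of members and 24.1% of all genes. At 1.5-fold or more, 18 of the 51 members were higher and 3 lower, while 21.2% of all genes were higher and 19.5% lower. Increases made up 73.5% of the called members, and 85.7% of those called at 1.5-fold or more.

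**Figure D1:**
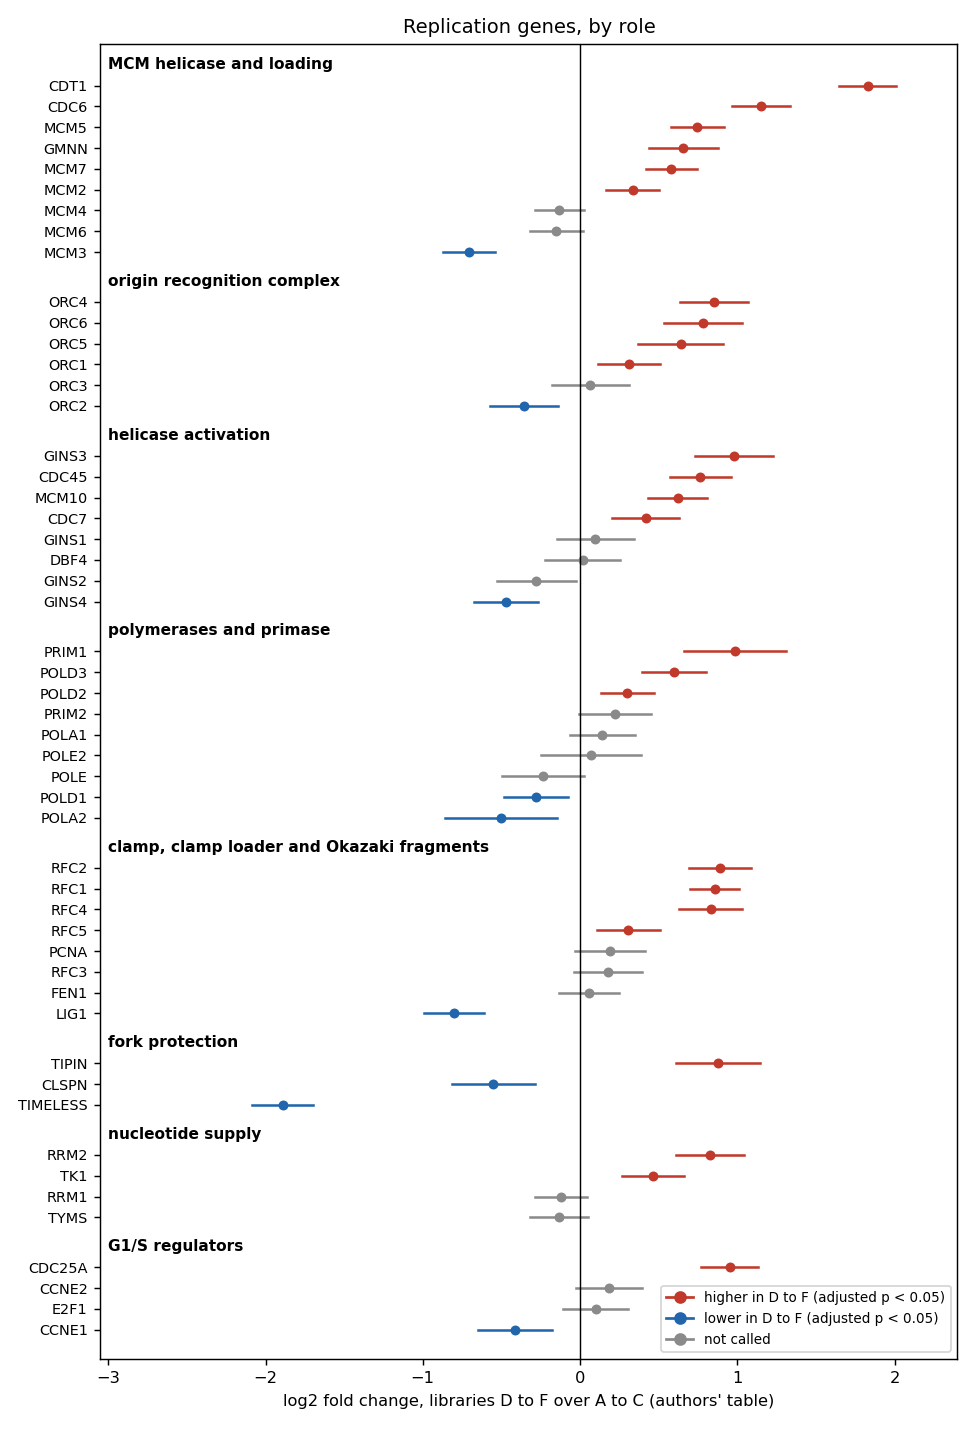
Log2 fold change of libraries D to F over A to C for the 51 replication genes in the authors' deposited table, grouped by role and ordered within a role. Points are the listed values, and bars are approximate 95% intervals implied by the listed p-values; CDT1 (1.83) and TIMELESS (-1.89) lie farthest from 0, and most other members lie within 1 unit of it.

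The table lists no standard errors. Approximate 95% intervals are given below as those that a listed p implies if it came from a two-sided normal (Wald) test of the listed fold change, which the sources used here do not state. The standard errors so implied lay between 0.08 and 0.18 for the 51 members, with a median of 0.11. Over all genes with an adjusted p their median was 0.15 and the largest was 3.86. How far this wider error adds to the larger absolute changes over all genes was not tested.

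The 2 largest increases among the members were those of licensing factors. CDT1, which brings the MCM ring to origins (chromosome 16, 88803213 to 88809258, GENCODE 29 on GRCh38), was 3.56-fold higher in D to F, by the authors' deposited table, with an interval of 3.13 to 4.03 and an adjusted p of 2.39e-84. CDC6, the ATPase that loads the ring with CDT1 (chromosome 17, 40287633 to 40304657), was 2.22-fold higher (interval 1.95 to 2.52, adjusted p = 4.35e-33 from the authors' DESeq2 comparison). GMNN, which encodes the CDT1 inhibitor geminin, was also higher, at 1.58-fold (interval 1.36 to 1.83, adjusted p = 1.41e-08 in the same table). The factor and its inhibitor therefore moved in the same direction, the factor by more, and their intervals did not overlap.

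Subunits of the MCM2-7 ring, which work together in 1 complex, did not share a direction. In the authors' deposited table MCM5 (0.74 on the log2 scale, adjusted p = 5.60e-17), MCM7 (0.58) and MCM2 (0.34) were higher. MCM3 was lower (-0.71, adjusted p = 1.75e-16), and its interval of -0.87 to -0.54 lay apart from those of all 5 other subunits. MCM4 (-0.13, interval -0.29 to 0.03) and MCM6 (-0.15, interval -0.32 to 0.02) were not called.

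In the origin recognition complex, which marks the sites of loading, ORC4 (0.85), ORC6 (0.78), ORC5 (0.64) and ORC1 (0.31) were higher and ORC2 (-0.36, adjusted p = 0.00244) was lower in the authors' deposited table. ORC3 was at 0.06 and not called. ORC1, the subunit whose level follows the cell cycle in human cells, had the smallest of the 4 called increases.

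Among the factors that turn the loaded ring into a running helicase, the helicase cofactor CDC45 (0.76, adjusted p = 1.05e-13 in the authors' deposited table) and MCM10, which is needed for the helicase to start unwinding (0.62, adjusted p = 6.01e-10), were higher on the log2 scale. The 4 GINS subunits were divided: GINS3 was higher (0.98, interval 0.73 to 1.23), GINS4 lower (-0.47, interval -0.68 to -0.26), and GINS1 (0.10) and GINS2 (-0.28, adjusted p = 0.0515) were not called. CDC7, the kinase that fires origins, was higher by 0.42, whereas its activating subunit DBF4 was at 0.02 with an interval of -0.22 to 0.26.

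**Figure D2:**
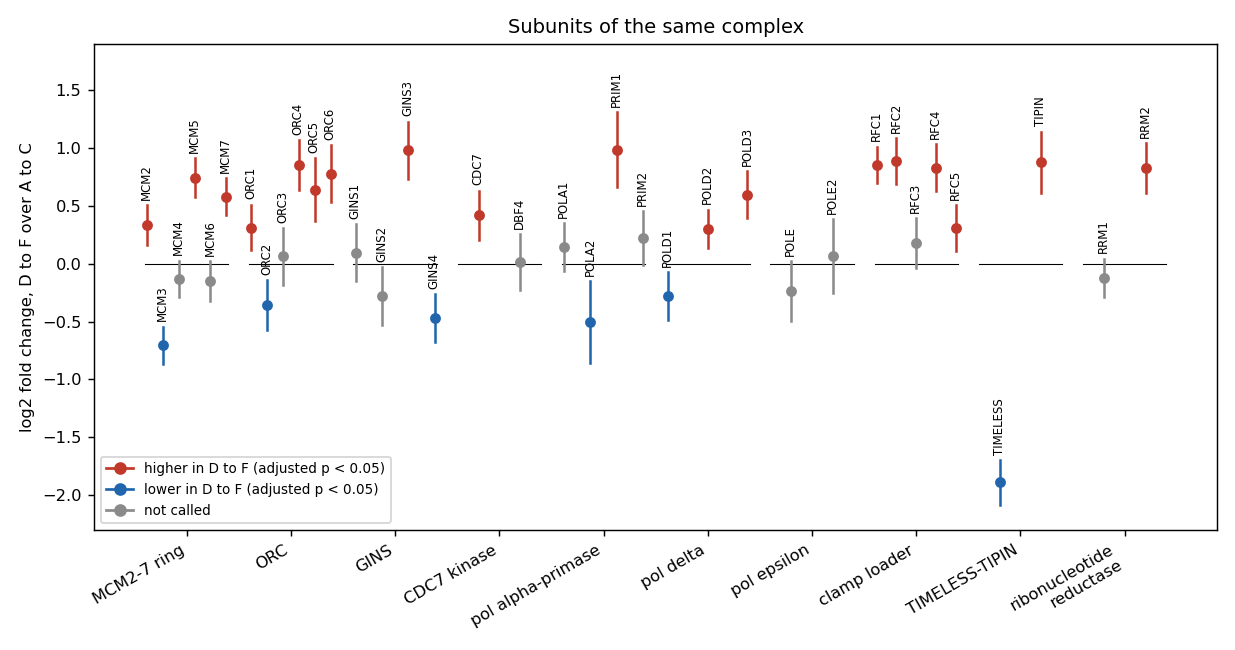
Log2 fold change of libraries D to F over A to C, from the authors' deposited table, for the member subunits of 10 replication complexes, with approximate 95% intervals. Called increases and called decreases stand side by side in the MCM2-7 ring, ORC, GINS, polymerase alpha-primase, polymerase delta and the TIMELESS-TIPIN pair, while all 5 clamp loader subunits lie above 0.

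The members included 9 subunits of polymerases alpha, delta and epsilon and of primase. Of these, 3 were higher (33.3%), 2 lower (22.2%) and 4 not called, shares near the 29.7% and 27.9% of all genes. PRIM1, the catalytic primase subunit that makes the RNA primer, was 1.98-fold higher by the authors' deposited table (interval 1.58 to 2.48, adjusted p = 1.12e-08), with PRIM2, its large subunit, at 0.22 on the log2 scale and not called. POLA2, the accessory subunit of polymerase alpha, was lower (-0.50, adjusted p = 0.0107), and the catalytic POLA1 was not called (0.14). In polymerase delta, which copies the lagging strand, the accessory subunits POLD3 (0.60) and POLD2 (0.30) were higher and the catalytic POLD1 (-0.28) lower. POLD4, an accessory subunit from the further replication factors below, was named after its value was seen. It was lower (-1.76, interval -2.91 to -0.60, adjusted p = 0.00619 in the same table). Neither member subunit of the leading strand polymerase epsilon was called, with POLE at -0.24 and POLE2 at 0.07. Its subunits POLE3 and POLE4, from the further replication factors below, were named after their values were seen. POLE3 was higher (1.01, adjusted p = 6.25e-24 in the same table) and POLE4 was not called (0.27).

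All 5 subunits of the clamp loader had positive log2 fold changes, and 4 (80%) were called higher, against 29.7% of all genes. RFC2 (0.89), RFC1 (0.86), RFC4 (0.83) and RFC5 (0.31) were higher, and RFC3 (0.18, interval -0.04 to 0.39) was not called in the authors' deposited table. PCNA, the clamp that this complex loads, was not called (0.19, interval -0.03 to 0.41, adjusted p = 0.144). Of the enzymes that finish Okazaki fragments, the flap nuclease FEN1 was at 0.06 and not called, and the ligase LIG1 was 1.74-fold lower (interval 1.52 to 1.99, adjusted p = 1.94e-15).

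Fork protection genes included the largest decrease among the members. TIMELESS, which travels with the fork and couples helicase to polymerase (chromosome 12, 56416373 to 56449403), was 3.70-fold lower in D to F, by the authors' deposited table, with an interval of 3.24 to 4.24 and an adjusted p of 9.68e-80. TIPIN, the partner that binds it, was 1.84-fold higher (interval 1.53 to 2.21, adjusted p = 5.91e-10). CLSPN, which encodes claspin, the adaptor between stalled forks and the checkpoint kinase CHK1, was 1.47-fold lower (interval 1.22 to 1.76, adjusted p = 0.000105).

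Of the 4 genes of nucleotide supply, 2 were higher (50%, against 29.7% of all genes) and 2 not called. RRM2, the small subunit of ribonucleotide reductase that is made in S phase, was 1.77-fold higher by the authors' deposited table (interval 1.53 to 2.06, adjusted p = 4.50e-13), and the thymidine kinase TK1 was 1.38-fold higher (adjusted p = 9.80e-06). RRM1, the large subunit (-0.12, interval -0.29 to 0.05), and the thymidylate synthase TYMS (-0.13, interval -0.32 to 0.05) were not called.

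Among the regulators of entry into S phase, CDC25A, the phosphatase that activates CDK2, was 1.94-fold higher by the authors' deposited table (interval 1.71 to 2.19, adjusted p = 9.54e-24). Cyclin E genes, whose products bind CDK2, differed: CCNE1 was lower (-0.41, adjusted p = 0.00128) and CCNE2 was not called (0.19). E2F1, the activating factor for many members, was at 0.10 with an interval of -0.11 to 0.31 and was not called. For each of the 17 members not called, the interval stayed within 1.5-fold in either direction.

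Other genes of the same pathways, in lists of related function, gave the surroundings. Of 18 further G1/S regulators, 7 were higher (38.9%) and 6 lower (33.3%) in the authors' deposited table, against 29.7% and 27.9% of all genes. The inhibitor of cyclin-dependent kinases CDKN1A (2.50, adjusted p = 2.01e-184) and the retinoblastoma gene RB1 (2.60, adjusted p = 2.92e-63) were higher, by more than any member, and the repressive factors E2F7 (0.81) and E2F8 (0.85) were also higher. SKP2, a ubiquitin ligase subunit that targets CDT1 and CDK inhibitors (-1.38), the E2F partner TFDP2 (-1.12) and CCNA2, which encodes the S-phase cyclin A (-0.24), were lower. Genes related to these, named after their values were seen, also ran both ways in the authors' deposited table. The retinoblastoma family gene RBL2 was lower (-1.56, adjusted p = 9.03e-20) and its relative RBL1 higher (0.57), and the kinase gene CDK2 was lower (-0.81, adjusted p = 7.49e-19).

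Of 32 further replication factors, 12 were higher (37.5%) and 7 lower (21.9%) in the authors' deposited table, against 29.7% and 27.9% of all genes. The median log2 fold change of these factors was 0.05. DTL, part of the ligase that degrades CDT1 during S phase, was higher (0.94, adjusted p = 8.83e-32), and so was RPA2, a subunit of the single-strand binding protein (1.01). The other subunits of that complex, named after their values were seen, were divided, with RPA1, the large subunit, lower (-0.88, adjusted p = 8.21e-23) and RPA3 higher (0.36). RNASEH2C, a subunit of the nuclease that removes ribonucleotides (-1.39), and CHTF18, of an alternative clamp loader (-1.31), were lower. The other subunits of that nuclease, RNASEH2A (0.40) and RNASEH2B (0.62), named after their values were seen, were higher. Against the same 29.7% and 27.9% of all genes, 10 of 26 other nucleotide enzymes with an adjusted p were higher (38.5%) and 6 lower (23.1%). IMPDH2 of guanine nucleotide synthesis was higher, with the smallest p of these (1.20, adjusted p = 1.33e-46), while the deoxynucleotide hydrolase SAMHD1 (-1.14), CTPS2 of cytidine nucleotide synthesis (-0.97) and the nucleotide kinase CMPK1 (-0.85) were lower. RRM2B, the ribonucleotide reductase subunit that p53 induces, was not called (-0.05, interval -0.28 to 0.17). SHMT1 was listed without an adjusted p.

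**Figure D3:**
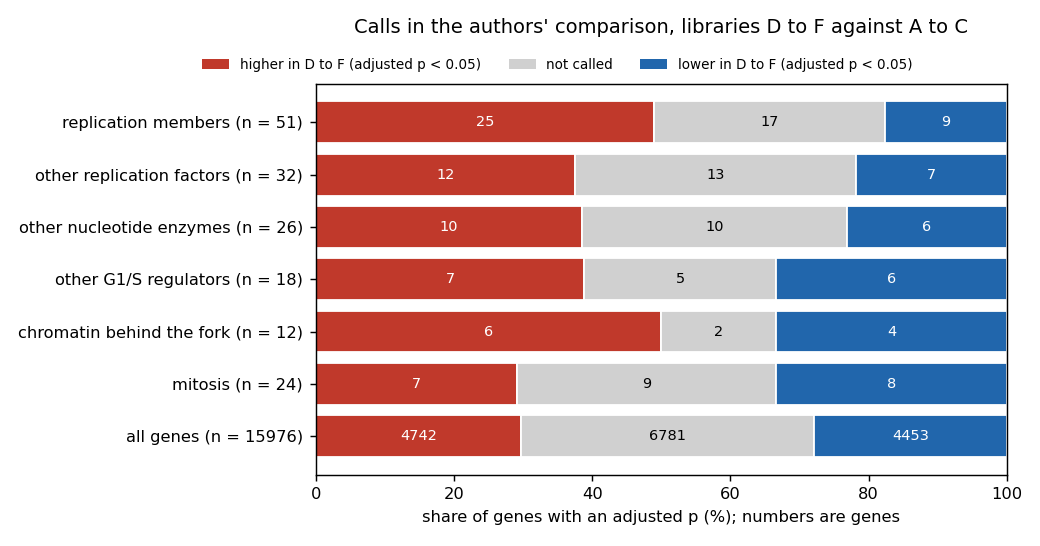
Share of genes higher, not called and lower in libraries D to F at an adjusted p under 0.05 in the authors' deposited table, for the 51 replication members, for 5 lists of related function and for all 15976 genes with an adjusted p. Numbers in the bars are genes; 25 members were higher and 9 lower.

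E2F motifs were frequent in the promoters of members that were higher, lower or not called, with shares that differed. RefSeq windows were found for 46 of the 51 members, 11 of them with more than 1 window, and a gene was counted when any window held a match. An E2F match was present for 24 of these 46 (52.2%), for 721 of 12309 genes with an adjusted p and a window (5.86%), and in 3.31% of all 35116 windows of 300 bases. By call, 9 of 23 members higher (39.1%), 4 of 8 lower (50%) and 11 of 15 not called (73.3%) held a match. The 95% Wilson intervals of these shares were 22.2% to 59.2%, 21.5% to 78.5% and 48.0% to 89.1%, which overlap. The difference between the shares was not tested. Matches that overlapped on both strands were joined to 1 site, giving 29 sites, of which 24 began within 100 bases before the start or after it. The CCAAT box, searched as CCAAT, was found for 28 of 46 members (60.9%) and for 42.5% of all genes with a window. The GGGCGG box was found for 36 (78.3%) and 71.9%. The CHR element, common in promoters of mitotic genes and searched as TTTGAA or TTCGAA, was found for 3 (6.52%) and 16.5%. Each was searched on both strands, and a match describes the letters of the window only.

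**Figure D4:**
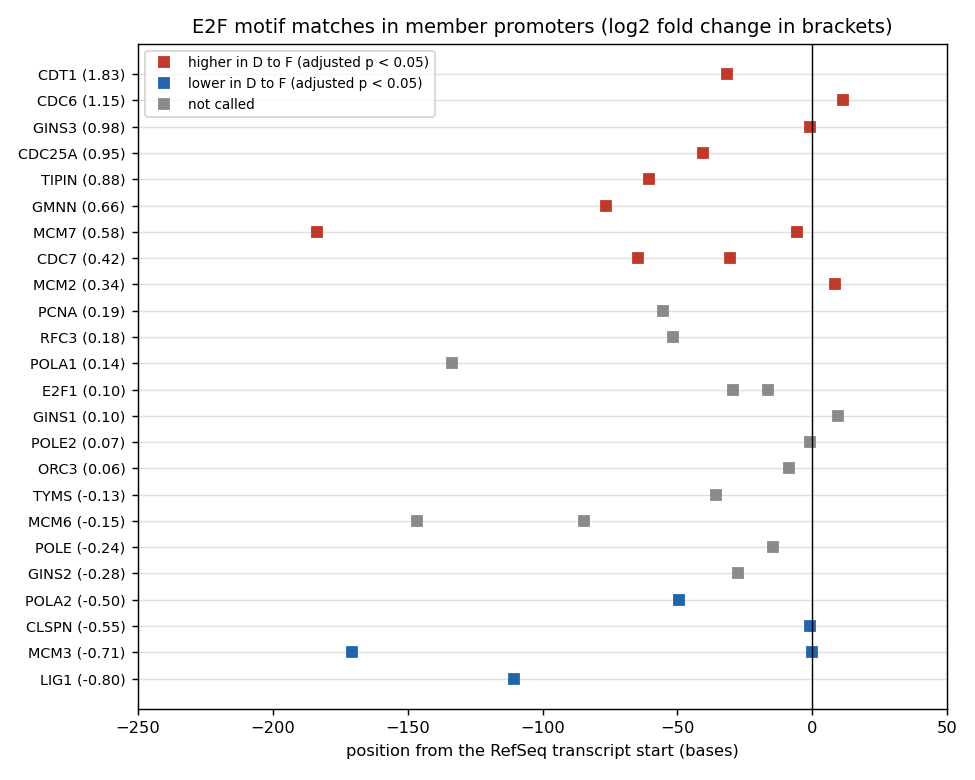
Positions of E2F motif matches relative to the RefSeq transcript start in the promoter windows of the 24 members that hold one, ordered by log2 fold change in the authors' deposited table, which is given in brackets after each name. Squares mark sites, coloured by the call; most sites lie within 100 bases of the start for members that were higher, lower or not called.

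Limits of the counting touch some members. No source used here states whether counting used strand, and 22 of the 51 members share annotated exon bases with another gene in GENCODE 29. The share was over 20% of exon bases for 8 of them, namely TYMS (46.6%), CCNE2 (37.1%), POLA2 (35.1%), MCM2 (23.6%), GINS4 (23.6%), PRIM1 (21.6%), TIPIN (21.0%) and RRM2 (20.2%). For POLA2, PRIM1, TIPIN and RRM2 another gene lies on the same strand, so strand cannot tell reads from the shared stretch apart. For TYMS, CCNE2, MCM2 and GINS4 the other genes lie on the opposite strand. Reads from those stretches could be told apart only if counting used strand. CDT1, CDC6, MCM3, MCM5, TIMELESS, RFC1, RFC2 and CDC25A shared none. Annotated pseudogenes that carry the parent's name exist for PCNA (3), RRM2 (3) and TYMS (2), among others, and could take part of their reads.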

How the data were processed

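RNA from 6 samples of the human line H1048 was sequenced as paired ends on an Illumina NovaSeq, per the labels' protocols. Per the submitters' processing notes the tools were DESeq2, HTSeq, STAR and Trimmomatic and the build was hg38. Versions, parameters, annotation and strand use are not given there. Log2 fold changes, p-values and adjusted p-values were deposited by the authors, per the column headers. The headers do not give the direction. It was taken as the D to F libraries over the A to C libraries from the order of the sets in the table's name. The 36 columns of single libraries in both tables (18 in each) were left out by choice, because no label ties them to samples; no count model was fitted and depth is not reported.

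An adjusted p of exactly 1, listed for 977 of 16953 genes, was treated as none. The other 15976 adjusted values matched a Benjamini-Hochberg adjustment over these genes within 1 part in 10000. Genes were called at an adjusted p under 0.05. The members, the 5 other lists (113 genes) and the named genes were chosen with earlier results of these data known. Named genes were all members, the 4 called genes of each list with the smallest p, CDKN1A, RRM2B, E2F7, E2F8 and CCNA2. RBL1, RBL2, CDK2, RPA1, RPA3, POLD4, POLE3, POLE4, RNASEH2A, RNASEH2B and NDC80 were added after their values were seen. Nothing shows that the samples came from separate cultures beyond the series' own words, so p-values measure the spread between these samples. Genes were matched by symbol to GENCODE 29, and promoters to RefSeq (GRCh38.p14); the last 30 bases of 53 of 60 member windows occurred in a transcript of their gene. Calculations used Python 3.11.15, pandas 2.3.3, numpy 2.4.6, scipy 1.17.1 and matplotlib 3.10.9, and were tested on simulated data.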

Additional observations from a re-analysis of the deposited data

How the results depend on the processing

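The members counted as higher numbered 25 at an adjusted p under 0.05, 25 under 0.01 and 18 at 1.5-fold or more. With an adjustment over every p-value they numbered 25. At these settings, in the same order, those lower numbered 9, 7, 3 and 9. Over all genes, set against the 15976 with an adjusted p, 29.7%, 25.5%, 21.2% and 29.5% were higher. Those lower made up 27.9%, 24.2%, 19.5% and 27.7%. After subtracting the all-gene median (0.05), and at 1.5-fold or more, 16 members were higher and 4 lower. Over all genes, 20.1% were then higher and 20.7% lower. In the authors' smaller table, which takes unadjusted p under 0.05 and at least 2-fold, 2 members were higher and 1 lower. It lists 2158 genes higher and 1863 lower, or 13.5% and 11.7% when set against the same 15976 genes. A minimum fold removes small changes by its construction. Increases were 73.5% of called members, 85.7% at 1.5-fold and 80.0% after centring; over all genes they were 51.6% of calls, and 49.2% after centring. Of the named genes, DBF4 alone changed sign when centred (-0.030, not called), and none changed its call with the adjustment over every p-value. The E2F match was found for 47.8% of members with a window when only the GG and CC spellings counted. No paired analysis was possible because no label ties the columns of single libraries to the samples and their replicate numbers. Those columns were left out by choice, so leaving out a library, a low-count filter, another scaling of counts and the effect of depth were not run.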

Other observations

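Genes that rebuild chromatin behind the fork were divided in the authors' deposited table. Of 12, 6 were higher (50%) and 4 lower (33.3%) in libraries D to F, against 29.7% and 27.9% of all genes. The histone chaperone ASF1A (log2 fold change 0.79) and SLBP, which binds the stem-loop of histone mRNAs (0.65), were higher, and the FACT subunit SUPT16H (-0.69) and UHRF1, which recruits the maintenance DNA methyltransferase (-0.60), were lower.

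Mitotic genes, which follow replication in the cycle, had 7 of 24 members higher (29.2%) and 8 lower (33.3%), shares near those of all genes, with a median log2 fold change of -0.06 in the authors' deposited table. HMMR was higher (0.80), and the factor FOXM1 (-0.76) and the kinetochore genes CENPF (-0.88) and NUF2 (-0.94) were lower. Another kinetochore gene, NDC80, named after its value was seen, was higher (0.86, adjusted p = 1.56e-11 in the same table). The difference between this list and the replication members was not tested.

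Of 5 genes that mark the tuft cell-like form of small cell lung cancer, all in the authors' deposited table, 3 were lower, POU2F3 among them (-1.71), and none higher. Over all genes with an adjusted p, 29.7% were higher and 27.9% lower. Of 5 neuroendocrine markers 4 were in the table, of which 2 were higher (INSM1 and SYP) and NEUROD1 had no adjusted p. Of 8 markers of fibroblasts, leukocytes and endothelium 7 were in the table, of which 1 was higher and 2 were lower, and COL1A2 had no adjusted p. Their part in the values of the replication genes was not tested.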
